A study of Mus musculus with 6 samples.

Results

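The transcription factor genes MAFA, NEUROD1, PAX6 and FOXA2 were followed across 6 islet RNA-seq libraries. They were chosen by symbol from the table of read counts, as factors of endocrine and β-cell identity with enough counts to compare, and all 4 of 4 were found among 13702 listed genes. Islets came from 12-week-old β-PCKO mice, whose β-cells lack pyruvate carboxylase (KO, 3 libraries), and from wild-type littermates (WT, 3 libraries). Pyruvate carboxylase feeds carbon from pyruvate into the mitochondrial citric acid cycle. The study's title ties this enzyme to p53 and to senescence of β-cells. The Cre driver of the deletion, the sex of the mice and the number of animals behind each library are not given in the sources used here. No label says that the libraries came from separate animals, so the p-values cover variation among these libraries alone, and it may be technical.

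Islet endocrine cells are specified and kept in their mature state by a small network of transcription factors that bind one another's genes and the hormone genes. MAFA is a basic leucine zipper factor that marks mature β-cells and activates the insulin gene. NEUROD1 is a basic helix-loop-helix factor that binds E-box sequences and drives endocrine differentiation. PAX6 carries a paired domain and a homeodomain and acts in all islet endocrine types, on insulin and glucagon genes alike. FOXA2 is a forkhead pioneer factor that opens chromatin early in pancreas development and is shared with liver, gut and lung.

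The table names genes by human identifiers and symbols, while the samples are labelled mouse, so each value counts reads placed on a gene with a human name. The identifiers were ENSG00000182759 for MAFA, ENSG00000162992 for NEUROD1, ENSG00000007372 for PAX6 and ENSG00000125798 for FOXA2. The mouse genes of the same symbols lie, in mm10 (GENCODE M21), on chromosome 15 from 75745490 to 75748228 for Mafa, on the minus strand and with 1 exon, and on chromosome 2 for the other genes. Neurod1 spans 79452521 to 79456751 on the minus strand with 2 exons, Pax6 spans 105668900 to 105697364 on the plus strand with 8 to 14 exons by transcript, and Foxa2 spans 148042877 to 148046969 on the minus strand with 2 to 3 exons. The table does not say which parts of these genes gave the reads. Counts were therefore not divided by length, and levels are not compared between genes.

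The 250 bases before a start site of mouse Neurod1 and Pax6 are shown, read 5′ to 3′ on the gene's strand, because NEUROD1 was the member that passed the test and PAX6 a member that did not. Capitals mark E-boxes (CANNTG, the class of site that NEUROD1 binds) and TGCTGA, the half-site of the element that MAF factors bind, on either strand. The sequences are from RefSeq on GRCm38.p6, at chr2:79456637-79456886 (minus strand), chr2:105668646-105668895 and chr2:105682213-105682462 (both plus strand).
Neurod1: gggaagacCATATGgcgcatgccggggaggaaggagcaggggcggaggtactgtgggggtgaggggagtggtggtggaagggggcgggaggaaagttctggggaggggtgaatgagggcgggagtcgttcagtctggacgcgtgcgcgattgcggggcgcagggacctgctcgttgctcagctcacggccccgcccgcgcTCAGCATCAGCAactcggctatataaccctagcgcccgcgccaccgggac
Pax6, first start site: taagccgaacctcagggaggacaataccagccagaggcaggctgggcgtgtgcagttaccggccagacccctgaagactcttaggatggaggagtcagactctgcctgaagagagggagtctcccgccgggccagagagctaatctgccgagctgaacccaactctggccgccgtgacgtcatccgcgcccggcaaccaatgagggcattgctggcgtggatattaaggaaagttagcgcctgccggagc
Pax6, second start site: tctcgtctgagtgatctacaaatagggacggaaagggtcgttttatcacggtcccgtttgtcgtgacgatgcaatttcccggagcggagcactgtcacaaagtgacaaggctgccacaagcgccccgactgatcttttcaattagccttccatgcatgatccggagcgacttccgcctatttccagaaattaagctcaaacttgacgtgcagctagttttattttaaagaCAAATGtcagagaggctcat

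Neurod1 held 1 E-box far from the start and 2 copies of TGCTGA, read here in the opposite direction as TCAGCA and lying end to end. The first Pax6 window held neither motif (0 and 0), and the second held 1 E-box and no TGCTGA (0). Of 32851 mouse promoter windows of the same length, 66.2% held an E-box, 16.1% held TGCTGA and 1.66% held TGCTGA at least 2 times. The forkhead core TGTTTAC was in 3.17% of them and in none of the Neurod1, Pax6 or Foxa2 windows (0 sites). The motifs do not overlap in these windows, and a match describes letters only.

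The libraries differed widely in depth and in the tissue genes they held. Total counts were 35906 to 377876 in WT and 224898 to 225561 in KO, so that 1 count was worth 27.9 CPM (the usual scaling of counts to a common library total) in WT replicate 1 and 2.65 CPM in WT replicate 2. Squamous epithelium markers (21 of 21 listed) took 18.7% of counts in WT replicate 2, where the other WT libraries had 0.0724% and 0.125% and KO had 0.0258% to 0.0341%. Fibrous connective tissue markers (12 of 14 listed) took 0.837% in WT replicate 3, where the other WT libraries had 0.245% and 0.059% and KO had 0.309% to 0.326%. The KO libraries were close to one another, with a chi-square per degree of freedom of 1.96 to 2.02 between pairs, against 18.1 to 35.4 between WT pairs. Islet identity could be checked only in part. The genes of insulin, glucagon, somatostatin, IAPP and PDX1 were not among the 13702 listed genes. CHGA and CHGB, which encode the main granule proteins of endocrine cells, had 1 count each over the 6 libraries. How far other tissues' counts in WT replicates 2 and 3 bear on the members was not tested.

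MAFA was higher in every KO library than in any WT library. In the order of replicates 1, 2 and 3, kept from here on, WT had 16, 5 and 16 counts of MAFA and KO had 253, 190 and 227. Per library total, MAFA lay at 446 CPM (95% exact interval 255 to 724) in WT replicate 1, 13.2 (4.3 to 30.9) in WT replicate 2 and 118 (67.5 to 192) in WT replicate 3, against 844 to 1122 CPM in KO. The groups did not overlap, and the nearest libraries, WT replicate 1 and KO replicate 2, had intervals that did not meet (724 against 728). On TMM-scaled library sizes, the KO mean of MAFA was 935 ± 136 CPM and its WT mean 178 ± 207 (SD, n = 3 each). The log2 fold change, KO minus WT, was 2.61 ± 0.89 (SE; 95% interval 0.60 to 4.61), and MAFA did not pass the threshold (adjusted p 0.0990 in edgeR's quasi-likelihood test over 2560 genes). The call turned on the setting: MAFA passed in 8 of 18 alternatives, with a positive log2 fold change in all 18 (1.26 to 4.49).

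NEUROD1 rose in the KO libraries. Its counts were 9, 16 and 15 in WT and 178, 143 and 128 in KO. The share of all counts was 251 (115 to 476), 42.3 (24.2 to 68.8) and 111 (62.0 to 183) CPM in WT, and 569 to 789 CPM in KO. The groups did not overlap, but the interval of WT replicate 1 reached 476 CPM and that of KO replicate 3 began at 475 CPM. On TMM-scaled sizes the KO mean of NEUROD1 was 627 ± 110 CPM and its WT mean 130 ± 89.2 (SD, n = 3 each), with a log2 fold change of 2.41 ± 0.60 (SE; 95% interval 1.05 to 3.76) and an adjusted p of 0.0450 in edgeR. It was the 1 member called, where 5.04% of the 2560 tested genes were called higher in KO and 3.01% lower. MAFA and NEUROD1 were the 2 members whose groups did not overlap on TMM-scaled CPM, higher in KO, which was also true of 22.6% of tested genes. The NEUROD1 call was lost in 8 of 18 alternatives, among them the 5 fits that dropped WT replicate 2, dropped WT replicate 3 or dropped 1 of the KO libraries, with a log2 fold change of 2.14 to 2.77 in those fits and adjusted p of 0.0629 to 0.193.

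PAX6 was split between the WT libraries. It had 98, 33 and 52 counts in WT and 413, 397 and 452 in KO. As a share of all counts, WT replicate 1 was the highest of all 6 libraries at 2729 CPM (2216 to 3325), KO lay at 1764 to 2010 CPM, and WT replicates 2 and 3 were lowest at 87.3 (60.1 to 122.6) and 384 (287 to 503) CPM. WT and KO therefore overlapped through 1 library. On TMM-scaled sizes the KO mean of PAX6 was 1761 ± 119 CPM and its WT mean 994 ± 1327 (SD, n = 3 each), with a log2 fold change of 0.87 ± 0.93 (SE; 95% interval −1.22 to 2.96) and an adjusted p of 0.544 in edgeR. Without WT replicate 1 the log2 fold change was 3.42 (adjusted p 0.00298), and against WT replicate 1 alone it was −0.44 (adjusted p 0.0317 in edgeR, with the lone library assumed to vary like the KO libraries). The direction of PAX6 thus rested on which WT library KO was set against.

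FOXA2 did not pass the test, and its WT libraries lay on both sides of KO. It had 26, 12 and 0 counts in WT and 20, 24 and 36 in KO. WT replicate 1 was highest at 724 CPM of all counts (473 to 1061), KO lay at 88.7 to 160, WT replicate 2 at 31.8 (16.4 to 55.5), and the 0 counts of WT replicate 3 had an exact interval that reached 27.2 CPM (the floor of 3 counts is 22.2 CPM). The groups overlapped. The log2 fold change on TMM-scaled sizes was −0.90 ± 1.33 (SE; 95% interval −3.88 to 2.09; adjusted p 0.664 in edgeR), with a KO mean of 112 ± 34.7 CPM and a WT mean of 239 ± 373 (SD, n = 3 each). Without WT replicate 1 it was 2.49 (adjusted p 0.0717), and against WT replicate 1 alone −2.50 (adjusted p 0.000224 in edgeR).

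**Figure D1:**
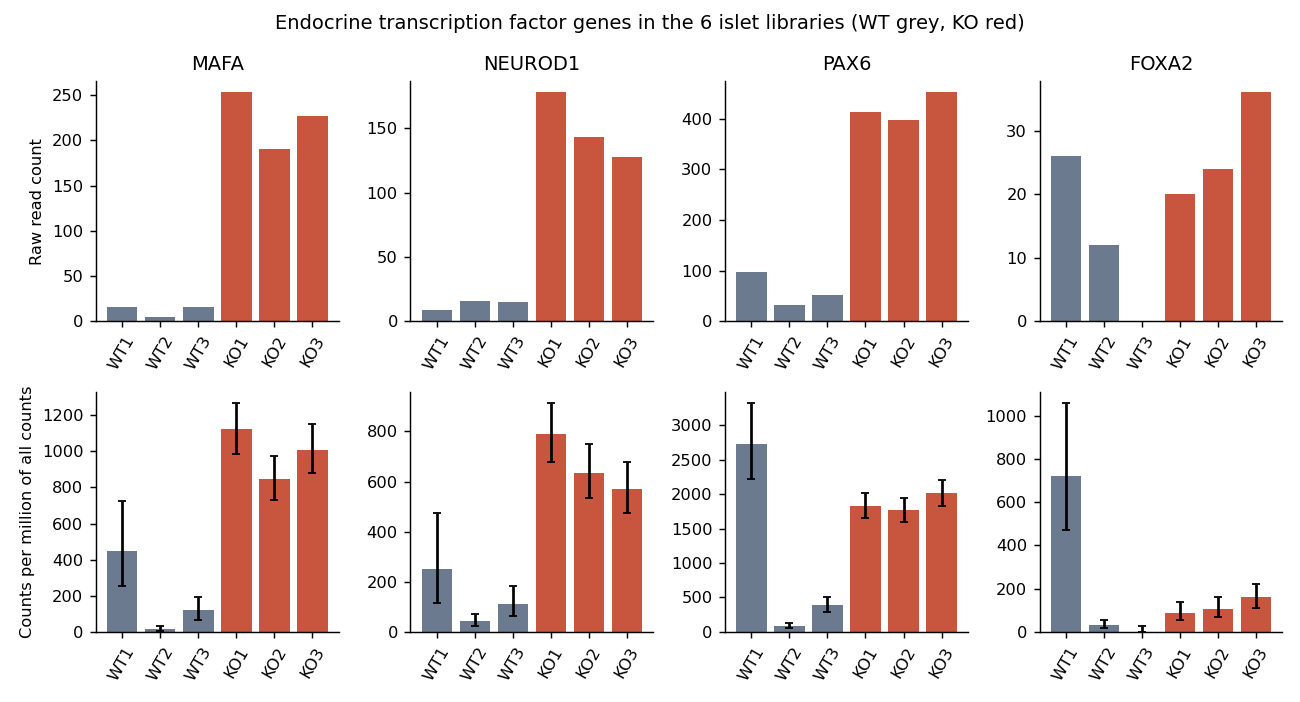
Raw read counts (top row) and CPM of all counts (bottom row, bars with 95% exact intervals that cover counting error only) of MAFA, NEUROD1, PAX6 and FOXA2 in each WT and KO library. In both rows the KO libraries stand above the WT libraries for MAFA and NEUROD1, while for PAX6 and FOXA2 WT replicate 1 is the highest library in CPM.

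Against WT replicate 1 alone, the members therefore took different directions. There, the log2 fold change was 1.26 for MAFA and 1.51 for NEUROD1 (adjusted p of 0.00805 for the former and 0.0140 for the latter in edgeR), while PAX6 and FOXA2 were lower. The median log2 fold change of all 2929 genes in that fit was 0.85, and the fit sets 1 library of 35906 counts against the near-identical KO libraries. In WT replicates 2 and 3 all 4 members were low in CPM. In bulk islets, fewer cells of a type and less RNA per cell cannot be told apart.

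Raw counts summed over a list of 51 endocrine transcription factors were close in the WT libraries, but their make-up was not. Although the library totals differed by about an order of magnitude, the 37 listed genes, members included, had 483, 457 and 485 counts in WT. The members gave 149, 66 and 83 of these, and 20, 34 and 22 of the factors had a count. Sums over 2 other lists were less alike in WT. They were 219, 234 and 364 for genes of β-cell secretion and glucose sensing, and 35, 93 and 252 for secretory granule genes. In KO these 2 lists had 1052, 1160 and 1104 counts and 146, 141 and 152 counts. The endocrine transcription factor list had 2435, 2361 and 2474 counts in KO. Per all counts, the same sums were 1.35%, 0.121% and 0.358% in WT and 1.05% to 1.10% in KO, so that WT replicate 1 lay above KO and WT replicates 2 and 3 below it. With raw counts compared on equal library sizes, MAFA, NEUROD1 and PAX6 were called higher in KO (log2 fold change 4.16, 3.48 and 2.78, adjusted p 0.00444, 0.00833 and 0.00788 in edgeR) and FOXA2 was not (1.07, adjusted p 0.665). Raw counts of MAFA, NEUROD1 and PAX6 (3 of 4 members) were higher in each KO library than in each WT library, as were those of 38.3% of tested genes. That scaling moved the median log2 fold change of all tested genes from −0.14 to 0.54.

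**Figure D2:**
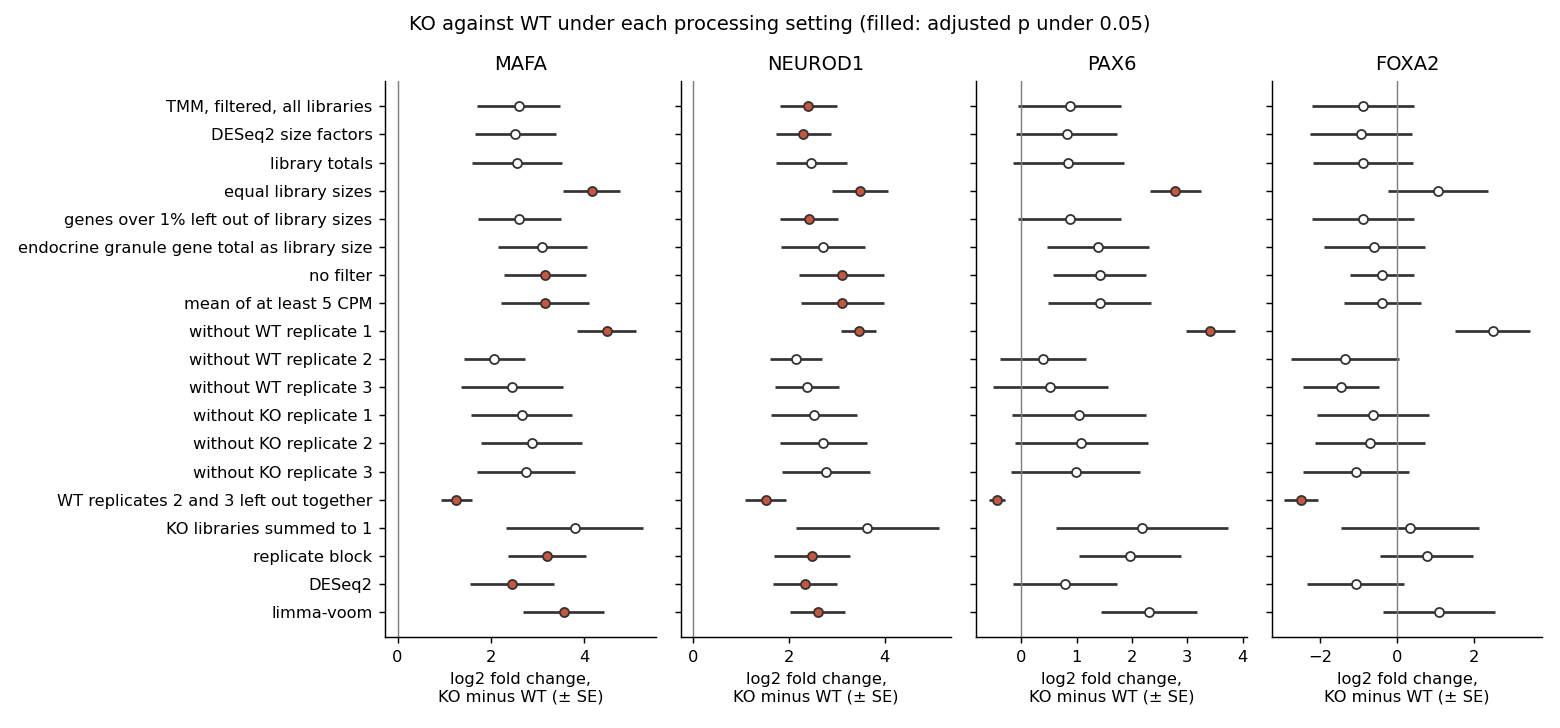
Log2 fold change, KO minus WT, with its standard error for the 4 members under the reported setting (top line) and 18 alternatives, filled where the adjusted p is under 0.05. MAFA and NEUROD1 lie above 0 in each setting, while PAX6 lies below 0 against WT replicate 1 alone and FOXA2 lies above 0 in 5 of the 18 alternatives.

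Ratios of 2 members within a library depend neither on depth nor on scaling, and gene length cancels between groups. The count of MAFA per count of PAX6 was 0.163 (95% exact interval 0.0898 to 0.279), 0.152 (0.0462 to 0.391) and 0.308 (0.164 to 0.547) in WT. It was 0.613 (0.522 to 0.718), 0.479 (0.400 to 0.570) and 0.502 (0.426 to 0.590) in KO. All KO libraries had a higher MAFA to PAX6 ratio than all WT libraries, although the intervals of WT replicate 3 and of KO replicates 1 to 3 met. The mean log2 ratio was −0.92 ± 0.19 in KO and −2.28 ± 0.53 in WT (SD, n = 3 each), a difference of 1.37 ± 0.33 (SE), or 2.58-fold. The exact two-sided permutation p was 0.1, the smallest that 3 against 3 allows, and 0.6 after adjustment over the 6 pairs, so that this difference did not pass. Among 2559 tested genes, 2.34% had a ratio to PAX6 that was higher in every KO library than in any WT library. Leaving out each library in turn kept the difference positive. Of tested genes, 0.625%, 1.91% and 0.86% lay higher in this way when divided by MAFA, NEUROD1 and FOXA2. Seen from the other side, 53.7% of tested genes had a ratio to MAFA that was lower in every KO library than in any WT library, so that PAX6 was 1 of many, and 54.2% had such a ratio to NEUROD1.

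The other 5 pairs overlapped between genotypes. NEUROD1 per PAX6 was 0.0918, 0.485 and 0.288 in WT and 0.431, 0.360 and 0.283 in KO, so that WT replicate 1 was low and WT replicate 2 was the highest library. MAFA per NEUROD1 was 1.78, 0.313 and 1.07 in WT and 1.42, 1.33 and 1.77 in KO, with WT replicate 2 the lowest and WT replicate 1 level with KO replicate 3. The log2 differences were 0.55 ± 0.72 and 0.81 ± 0.72 (SE), with exact permutation p of 0.7 and 0.3 (0.84 and 0.8 adjusted over the 6 pairs). Against FOXA2 the ratios were dominated by its 0 counts in WT replicate 3: the log2 differences of MAFA, NEUROD1 and PAX6 to FOXA2 were 2.02, 1.20 and 0.65, with standard errors of 2.02, 1.95 and 1.70. Their exact permutation p were 0.4, 0.6 and 0.9.

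**Figure D3:**
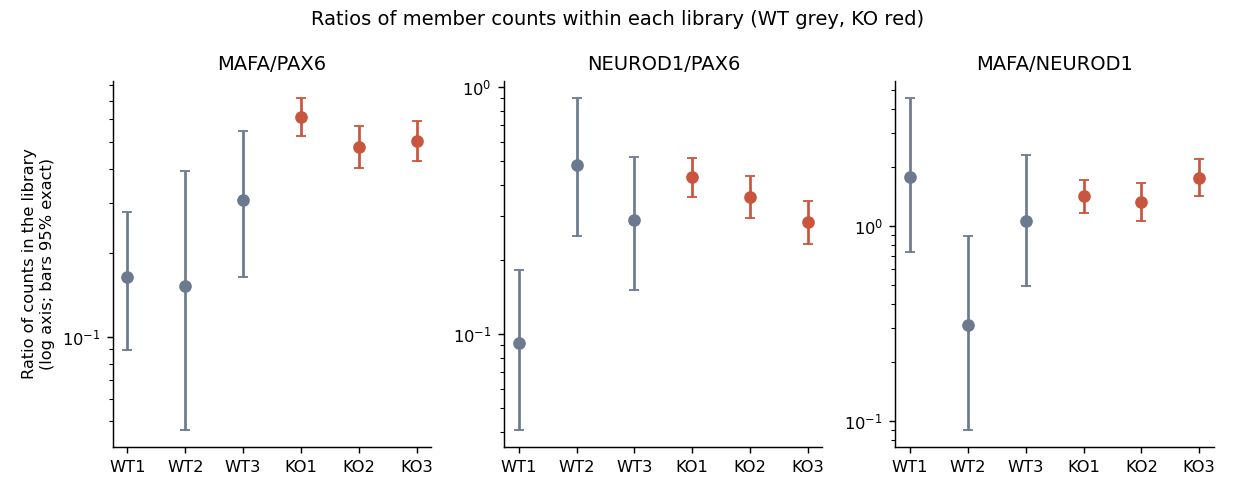
Ratio of the counts of 2 members within each library, on a log axis, with 95% exact intervals that cover counting error only. MAFA per PAX6 lies at 0.152 to 0.308 in WT and 0.479 to 0.613 in KO, while the ratios of NEUROD1 to PAX6 and of MAFA to NEUROD1 overlap between genotypes.

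Within the summed counts of the endocrine transcription factor list, MAFA and NEUROD1 took larger shares in KO. MAFA took 3.31%, 1.09% and 3.299% of those counts in WT and 10.4%, 8.05% and 9.18% in KO. NEUROD1 took 1.86%, 3.50% and 3.09% in WT and 7.31%, 6.06% and 5.17% in KO. For both, each KO library lay above each WT library, as was the case for 5.35% of tested genes when divided by the same sum. PAX6 took 20.3%, 7.22% and 10.7% in WT and 16.8% to 18.3% in KO, which overlapped, and FOXA2 took 5.38%, 2.63% and 0% in WT and 0.821% to 1.46% in KO, which overlapped as well. These shares are not independent of one another, because the sum contains the members.

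**Figure D4:**
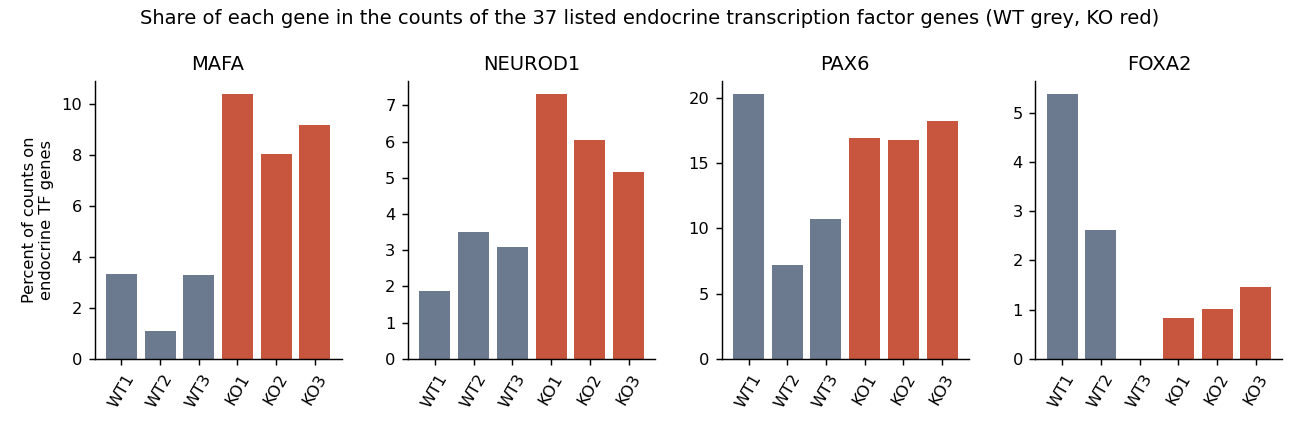
Percent of the counts on the 37 listed endocrine transcription factor genes taken by MAFA, NEUROD1, PAX6 and FOXA2 in each library. KO libraries are above all WT libraries for MAFA and NEUROD1, and for PAX6 and FOXA2 the genotypes overlap.

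Other endocrine transcription factors mostly had positive differences that did not pass. Of the 51 listed factors, 37 were in the table, 20 passed the low-count filter (the 4 members among them), 4 rose (NEUROD1, RFX6 and NPAS4 among them), none fell (0, also with DESeq2 and limma-voom) and 16 did not pass. Among all 2560 tested genes, 5.04% were called higher in KO and 3.01% lower. The filter can be met by 1 genotype alone, so these counts describe the tested genes and not the list. The median log2 fold change of the 20 was 1.26, against −0.14 over all 2560 tested genes. The factors that rose were not called together in every fit. None of the list (0) rose without WT replicate 2 or without any 1 KO library. Of all tested genes, 9 of 2780 rose without WT replicate 2 and 3 to 15 without 1 KO library. Without WT replicate 3, 2 of the list rose, as did 122 of all 2794 tested genes. Without WT replicate 1, 17 of 21 rose and 1 fell, where 816 of all 3279 tested genes rose and 711 fell. Against WT replicate 1 alone the median log2 fold change was 0.52 over 22 factors, of which 13 were above 0, and 0.85 over all genes.

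RFX6, a winged-helix factor of endocrine differentiation, had 0, 1 and 2 counts in WT and 14, 14 and 13 in KO. Its ratio of summed counts on scaled sizes, KO over WT, was 8.53 (95% exact interval 2.72 to 43.1), with an adjusted p of 0.0444 in edgeR. NPAS4, a basic helix-loop-helix factor induced by membrane depolarisation, had 15, 35 and 20 counts in WT and 231, 225 and 225 in KO, and its log2 fold change was 2.22 ± 0.56 (SE; adjusted p 0.0451 in edgeR). For both, every KO library lay above every WT library on TMM-scaled CPM, as was true of 22.6% of tested genes. The calls held in 6 of 18 alternatives for RFX6 and in 10 of 18 for NPAS4.

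INSM1, a zinc finger factor of endocrine differentiation, had 100, 37 and 54 counts in WT and 260, 259 and 252 in KO. Its counts per count of PAX6 were 1.02, 1.12 and 1.04 in WT and 0.630, 0.652 and 0.558 in KO. The WT values lay close together and above each KO value. RFX3, a factor of endocrine cell ciliogenesis and differentiation, had 57, 36 and 43 counts in WT and 202, 221 and 223 in KO, and was also lower per PAX6 count in each KO library. PROX1, a homeobox factor of pancreatic progenitors, had 63, 21 and 64 counts in WT and 194, 262 and 221 in KO. TCF7L2, a Wnt effector, had 0, 14 and 24 in WT and 94, 104 and 96 in KO. None of these (0 of 4) passed the test, with log2 fold changes of 0.12, 0.59, 0.48 and 2.38 and adjusted p of 0.936, 0.624, 0.716 and 0.0895 in edgeR for INSM1, RFX3, PROX1 and TCF7L2. Of the 19 tested factors other than PAX6, MAFA was the 1 whose ratio to PAX6 was higher in all KO libraries, 3 were lower (INSM1, RFX3 and NR3C1) and 15 overlapped; among all tested genes, 19.3% were lower.

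Markers of other cells that islets or their surroundings could hold were summed for each library. The α-cell list had 6 of 10 genes in the table and took 0.0045% to 0.0251% of counts in WT and 0.0333% to 0.0382% in KO. GC, a vitamin D binding protein enriched in α-cells, was at 0 in each WT library and had 1, 0 and 0 counts in KO. For δ- and PP-cells, 4 of 8 genes were listed and 3 of them had at most 1 count over all libraries. The acinar list had 1 listed gene and 1 count in all. Neuronal genes, a tissue that also uses NEUROD1 and PAX6, took 0.0172% to 0.1003% in WT and 0.0711% to 0.0805% in KO. Of the 16, 8 were listed, 3 of them at 0 in all KO libraries and 2 at 0 in all WT libraries. Of 4 tested, 3 rose (GRIN1, NEFM and SHANK3), none fell (0) and MAP2 did not pass (log2 fold change −0.57). Among all tested genes 5.04% rose and 3.01% fell, and the filter can be met by 1 genotype alone. GRIN1, an NMDA receptor subunit, had 1, 0 and 1 counts in WT and 55, 46 and 76 in KO. SYN1, a synaptic vesicle protein, had 19, 10 and 2 in WT and 0, 3 and 4 in KO and did not enter the test. Eye genes, another site of PAX6, took 0% to 0.189% in WT and 0.000889% to 0.0031% in KO (4 of 17 listed). The highest value, in WT replicate 3, was the 256 counts of KERA alone, which is also on the fibrous connective tissue list. Of the pituitary markers, GH1 took all KO counts of the list (7285, 7123 and 7132, against 7, 6 and 5 in WT), and the other 5 listed genes were at 0 in each KO library. The part of these cells in the members' differences was not tested.

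Genes of β-cell secretion and glucose sensing gave 2 rises among 9 tested of 42 (22 listed), no fall (0) and 7 that did not pass, where 5.04% of all tested genes rose and 3.01% fell. These counts turned on the libraries used. Without WT replicate 1, 8 of 10 rose and 1 fell, where 816 of all 3279 tested genes rose and 711 fell. Without KO replicate 1 or without KO replicate 2, 0 rose, as did 3 and 4 of all 3345 tested genes. Against WT replicate 1 alone the median log2 fold change was 0.23 over 9 genes, of which 5 were above 0, and 0.85 over all genes. UCP2, a mitochondrial uncoupling protein, had 0, 1 and 0 counts in WT and 61, 69 and 52 in KO, which is a 114-fold ratio (20.1 to 4512), called at an adjusted p of 0.0237 in edgeR. GJD2, which encodes the gap junction protein that couples β-cells, had 3, 24 and 3 counts in WT and 224, 201 and 237 in KO, and its log2 fold change was 3.86 ± 0.65 (SE; adjusted p 0.0237 in edgeR). The calls held in 14 of 18 alternatives for UCP2 and in 13 of 18 for GJD2. In edgeR, UCP2 lost its call without WT replicate 2, KO replicate 1 or KO replicate 2 (adjusted p 0.0504, 0.0638 and 0.0582), and GJD2 without KO replicate 1, 2 or 3 (0.0852, 0.0628 and 0.0536). SNAP25, a vesicle fusion gene, had 42, 28 and 93 counts in WT and 291, 381 and 327 in KO. CACNA1D, a β-cell calcium channel subunit, had 97, 52 and 44 in WT and 236, 280 and 255 in KO, and SYTL4, a granule docking gene, had 39, 21 and 25 against 132, 116 and 119. SNAP25, CACNA1D and SYTL4 did not pass (adjusted p 0.261, 0.913 and 0.760 in edgeR). CACNA1D and SYTL4 were, like PAX6, highest in CPM in WT replicate 1. CPE, which encodes a prohormone-processing enzyme, had 0, 17 and 129 counts in WT and 7, 3 and 7 in KO and did not enter the test. The median log2 fold change was 1.27 over the 9 genes that passed the filter and −1.66 over all 22 listed genes without a filter, of which 9 were above 0, against −1.06 over all 13702 genes in that fit.

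Across the 6 libraries, the genes with a profile of log2 CPM most like each member were as follows. For MAFA these were CDC42, FBXW2 and MEIS2 (Pearson r 0.996 to 0.999), for NEUROD1 SEPT7, FYN, SRSF7 and HIPK1 (0.993 to 0.998), for PAX6 ARIH1, BRPF1, DDX26B and AZIN1 (0.998 to 1.000), and for FOXA2 CNOT1, ARID2, BTBD7 and XRN2 (0.988 to 0.994). MEIS2, a homeobox factor, had 39, 33 and 57 counts in WT and 408, 405 and 360 in KO. Such profiles were common: of 2556 genes, 118 had an r of at least 0.95 with MAFA, 101 with NEUROD1, 159 with PAX6 and 36 with FOXA2. The points share depth and the likeness of the KO libraries, and r is given as a description with no test. The spread within KO was small for each member, at 6.78% of the mean for PAX6, 14.6% for MAFA, 17.5% for NEUROD1 and 31.1% for FOXA2, against 68.6% to 156% in WT.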

How the data were processed

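RNA from mouse islets was sequenced in 6 libraries. Per the labels' protocols, ribosomal RNA was removed and strand-marking libraries were read from both ends. Tools named in the submitters' processing notes, without their roles, are HISAT2 2.0.4, cutadapt 1.9.3, edgeR 3.16.5 and HTSeq 0.9.1, and the build named is mm10. The values are raw counts per gene, per the file headers, as the authors deposited them. None of the identifiers (0 of 13702) is in the mouse gene name table, and 11747 symbols match a mouse symbol apart from case. The sources used here do not say how reads reached human names. A second block of 6 per-sample columns was not used. One line of the table was empty and is not analysed here.

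Titles gave each library's genotype and number. The test was run in edgeR 4.0.16 under R 4.3.3 (TMM, filterByExpr, quasi-likelihood F test on genotype, two-sided, Benjamini-Hochberg adjustment at 0.05), on 2560 genes, and the members were read from that fit. The script was tested on simulated data. With the spread between libraries as fitted, it recovered 13.7% of 4-fold and 91.9% of 16-fold changes, with 8 false calls among 112. With a low spread it recovered 95.9% and 100%, with 6 false calls among 200. A gene that did not pass may therefore still differ by 4-fold. The simulation gave each gene the same spread in both genotypes, while the real WT libraries differed far more than the KO libraries. The recovery and false-call rates may thus not hold for these data. Standard errors come from the F statistic. Ratios used a pseudocount of 0.5 for differences, and log2 CPM a prior count of 2. Intervals are exact Clopper-Pearson at 95% and, like the floor of 3 counts, cover counting error only. Alternatives used other scalings and filters, left out libraries, the replicate number as a block, DESeq2 1.42.0 and limma 3.58.1. Members, gene lists and the rule for named genes were chosen with earlier results of these data known. That rule took the members, called genes of 2 lists (up to 8 each), the 4 others with most counts, the 4 genes most like each member, and the marker genes with most counts. CPE, NR3C1, GC, SYN1, CHGA and CHGB were named after their values were seen, and some genes that the rule takes are not reported here. Lists of ductal, endothelial, immune and muscle markers were also made.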

Additional observations from a re-analysis of the deposited data

How the results depend on the processing

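All 18 alternatives kept a positive log2 fold change for MAFA and NEUROD1. MAFA, not called as reported, was called on equal library sizes (4.16), without a filter (3.163), at a mean of 5 CPM (3.17), against WT replicate 1 alone (1.26), with DESeq2 (2.45) and with limma-voom (3.57). NEUROD1 lost its call with library totals (2.47), with the endocrine granule gene total as library size (2.71) and with the KO libraries summed (3.64). Leaving out 1 library gave 2.08 to 4.49 for MAFA, 2.14 to 3.45 for NEUROD1, 0.40 to 3.42 for PAX6 and −1.46 to 2.49 for FOXA2. PAX6 was called higher on equal library sizes (2.78) and pointed lower against WT replicate 1 alone (−0.44). FOXA2 pointed higher on equal library sizes (1.07), without WT replicate 1 (2.49), with the KO libraries summed (0.33) and with limma-voom (1.10), and was called lower against WT replicate 1 alone (−2.50). The cause was not tested.

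The count of called genes, 206 as reported, was 43 with the granule total, 439 without a filter, 385 at a mean of 5 CPM, 766 against WT replicate 1 alone, 0 with the KO libraries summed (edgeR, 301 at an unadjusted p under 0.05), 447 with DESeq2 and 312 with limma-voom. It was 3 to 1527 with 1 library left out. At an adjusted p of 0.01 it was 0 in edgeR (729 at an unadjusted p under 0.05), and 422 at 0.10. On equal library sizes 305 were higher and 1 lower, and with DESeq2 211 and 236, against 129 and 77 as reported.

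The titles share replicate numbers, and whether the numbers pair the libraries could not be told here. Same-numbered deviations from the group means correlated at −0.0149 to 0.0191, and 0 of 3 WT libraries correlated best with their own number. Because the KO libraries were near-identical, their deviations could be mostly counting error, and these correlations cannot show or exclude a pairing. With the replicate number as a block, MAFA was called (3.21), FOXA2 pointed higher (0.77) and 137 genes were called.

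Without WT replicate 1 the log2 ratios NEUROD1/PAX6, NEUROD1/FOXA2 and PAX6/FOXA2 turned to −0.11, −0.18 and −0.07, and without WT replicate 2 PAX6/FOXA2 turned to −0.31. With 1 library left out, the ratio differences ran from 0.14 to 1.33 for MAFA/NEUROD1, from 1.20 to 1.67 for MAFA/PAX6, from 0.90 to 4.01 for MAFA/FOXA2, from −0.11 to 1.07 for NEUROD1/PAX6, from −0.18 to 3.04 for NEUROD1/FOXA2, from −0.31 to 2.34 for PAX6/FOXA2. Against WT replicate 1 alone INSM1, PROX1, RFX3, CACNA1D and SYTL4 pointed lower (−1.18, −0.70, −0.63, −1.14 and −0.89). So did INSM1 (−0.35 and −0.22) and CACNA1D (−0.27 and −0.21) without WT replicate 2 and WT replicate 3, and SYTL4 without WT replicate 2 (−0.038). With 1 library left out these ran up to 2.62 for INSM1, 2.61 for CACNA1D and 2.56 for SYTL4. Depth limits WT replicate 1 most, where 1 count is worth 27.9 CPM.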

Other observations

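Further marker lists gave the following values. Ductal markers (8 of 8 listed) took 0.0170% to 0.0251% of counts in WT and 0.00709% to 0.0116% in KO. Endothelial markers (5 of 9 listed) had 1 to 21 counts per WT library and 2 in each KO library. Myeloid and lymphoid markers (4 of 10 listed) had 0 to 38 counts in WT and 2 to 4 in KO. Skeletal muscle markers (7 of 14 listed) had 0, 25 and 7 counts in WT and 115, 100 and 122 in KO, of which MYH4 had 112, 94 and 118 in KO and 0, 1 and 0 in WT. Genes of the endocrine secretory granule (9 of 17 listed) took 0.0975%, 0.0246% and 0.186% of counts in WT and 0.0626% to 0.0676% in KO.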
